A study of Mus musculus with 9 samples.

Results

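The D-type cyclin genes Ccnd1, Ccnd2 and Ccnd3 and the genes of their kinase partners, Cdk4 and Cdk6, were followed in mouse pre-B cells on 9 expression arrays. The members were every probe set whose annotated gene symbol is one of these 5, which gave 19 of 45101 probe sets on the array: 3 for Ccnd1, 7 for Ccnd2, 3 for Ccnd3, 3 for Cdk4 and 3 for Cdk6. All cells were null for the transcription factors IRF4 and IRF8 (genotype IRF4,8 -/-). In the +IRF4 group, 3 arrays, IRF4 had been put back and the cells grew in the high amount of IL-7. In the IL7lo group, 3 arrays, no IRF4 had been put back and the cells grew in little IL-7, and in the IL7hi group, 3 arrays, they grew in the high amount. The labels give these amounts as 0.25 and 5 ng but disagree on the volume, so no concentration is stated. They name no group that was handled like +IRF4 but without IRF4, so the means of putting it back cannot be told apart from IRF4. Nothing in them says that replicates were grown or collected apart, so each p-value is set against a spread among arrays that may be technical.

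A D-type cyclin binds CDK4 or CDK6, and the kinase so formed phosphorylates the retinoblastoma protein RB, which then releases E2F factors and lets a cell pass from G1 into S phase. The cyclins are short-lived and their genes respond to growth factors, whereas the kinases are held back by the INK4 inhibitors. In B cell precursors IL-7 signals through STAT5, cyclin D2 is known as a target of STAT5 and MYC, and cyclin D3 is the D-type cyclin that pre-B cells of the mouse need in order to expand. Cyclin D1 is the usual D-type cyclin of fibroblasts and epithelium and is known to be low in normal B cells.

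Array medians lay between 139.7 and 151.3 intensity units, and replicates correlated with r from 0.978 to 0.995 on the log2 scale. The pre-B cell label was checked on 10 markers whose summed intensity was 68637 to 71397 in +IRF4, 91558 to 93783 in IL7lo and 62823 to 71315 in IL7hi. Cd79a, a chain of the B cell receptor complex, read at least 4228 on every array, while Cd3e, a T cell gene, read at most 220 and Lyz2, a myeloid gene, at most 152. Of 7 myeloid markers tested, 2 were higher in IL7lo than in IL7hi, Itgam (2.01) and Fcer1g (1.49), and 1 lower, Ctss (-0.72). Over all genes 17.6% were higher and 19.4% lower. Itgam read 172 to 259 in IL7lo and 37.5 to 50.2 in IL7hi. In +IRF4 against IL7hi Ctss was higher (1.29) and Fcer1g lower (-1.4), where 1.91% and 0.935% of genes were. The sum of 20 stromal markers varied within groups, from 16861 to 37563 in +IRF4, 16653 to 25619 in IL7lo and 17851 to 51122 in IL7hi. Of the 17 stromal markers tested, 5 were lower and 1 higher in IL7lo than in IL7hi (median -1.31), and 14 were lower and 3 higher with replicate number as a block within the 6 arrays. Sums of 12 myeloid and 6 erythroid or megakaryocyte markers also followed the groups, at 3527 to 4014 and 10271 to 10984 in +IRF4, 3065 to 3215 and 9324 to 10533 in IL7lo, and 2360 to 2803 and 15316 to 15882 in IL7hi, and their part in the results was not tested. Of the Irf4 probe sets, the dimmer read 1088, 1379 and 2543 in +IRF4, against 257 to 316 in IL7lo and 202 to 381 in IL7hi. The brighter went the other way, at 3702 to 4256 in +IRF4, 7161 to 7926 in IL7lo and 4719 to 5791 in IL7hi, and where its probes lie relative to the deleted part is not stated in the labels. In +IRF4 replicate 3 and IL7hi replicate 1 the 18S control signal was 6.41 and 6.53 on the log2 scale, against 7.70 to 8.49 on the other 7 arrays. The log2 signal of the 3' minus the 5' control probe set also set these arrays apart. For Actb it was 0.33 and 0.28, against 0.46 to 0.61 on the others. For Gapdh it was 0.14 and 0.13, against 0.03 to 0.07.

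Lowering IL-7 left the 5 genes at different levels: Ccnd2 fell 8.16-fold, Cdk4 fell 1.24- to 1.64-fold over its probe sets, Ccnd1 rose 1.61- to 2.71-fold, 2 of 3 Ccnd3 probe sets were called higher, 1 of them not under an added normalization, and Cdk6 did not pass the test. With IRF4 put back in high IL-7, Ccnd2 rose 2.18-fold by its brightest probe set and no probe set of the other 4 genes passed. Differences are of log2(intensity + 16), in which dim probe sets show less than their full change, with n = 3 arrays a group. Tests are limma's, with p adjusted over the 27024 probe sets that passed a filter on dim signal, a mean of at least 108 over the 9 arrays. Of the 19 probe sets 18 passed it, and the other was a Cdk6 probe set. In IL7lo against IL7hi 5 of the 18 were called higher and 10 lower at an adjusted p under 0.05, where 18.1% and 18.3% of all probe sets tested were (36.4% in either direction). Of the 5, Ccnd1 1417419_at passed the filter only through IL7lo, where it is high, so its call is no support. In +IRF4 against IL7hi 6 were called higher and 0 lower, where 1.58% and 1.18% of all were (2.76% in either direction). At an unadjusted p under 0.05 limma gave 8 higher and 2 lower there, the 2 being Cdk6 probe sets with the same target accession. The share of all probe sets at an unadjusted p was not taken, so such counts, here and for the lists below, are a description only. In +IRF4 against IL7lo 9 were called higher and 4 lower, where 17.2% and 20.3% of all were (37.5% in either direction). The 4 include Ccnd1 1417419_at, whose call is no support here either. Probe sets of a gene share its transcripts and are not independent, so these counts weigh Ccnd2, with 7 probe sets, most.

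**Figure D1:**
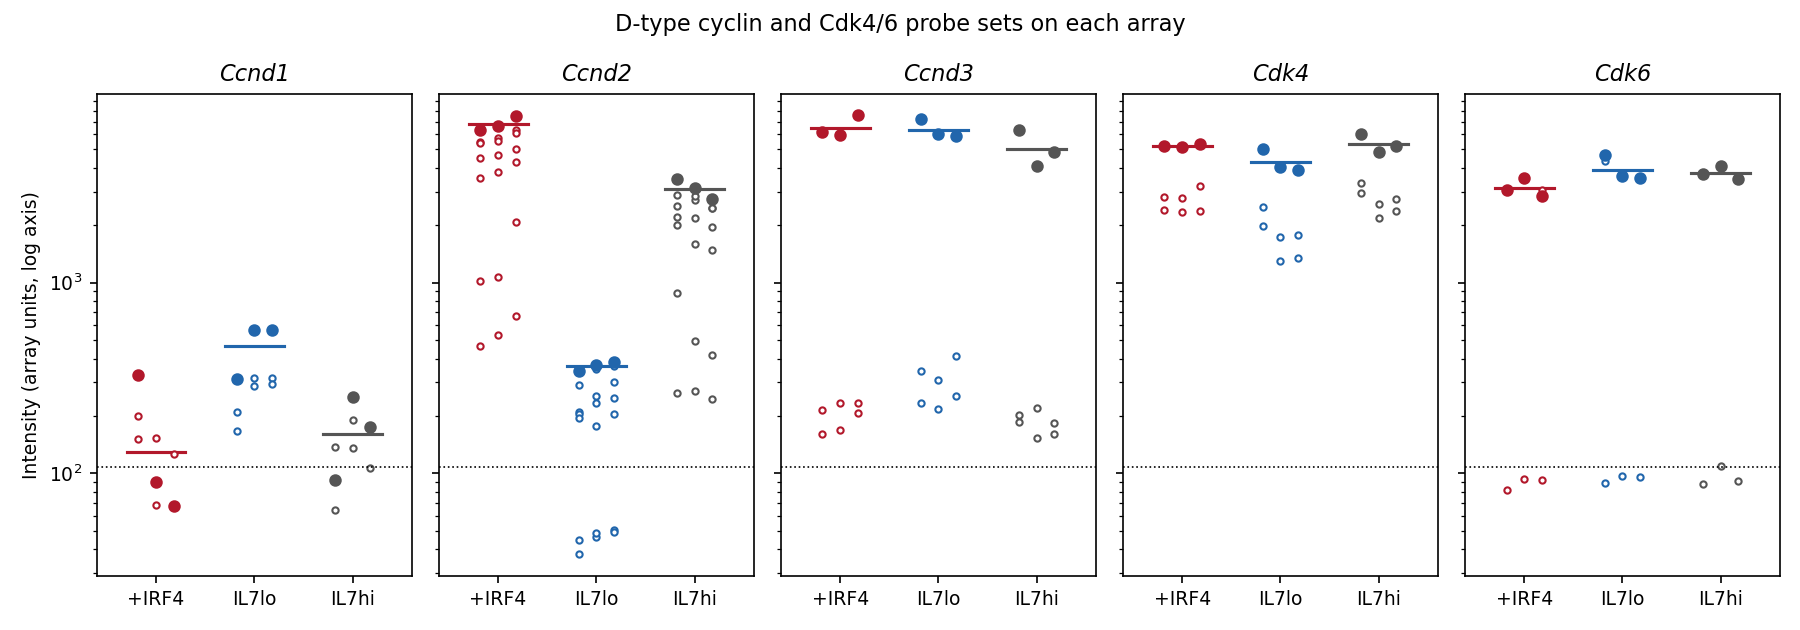
Intensity of all 19 probe sets on each array (vertical log axis, array units), with the +IRF4, IL7lo and IL7hi arrays side by side in order of replicate number. Large filled points are the brightest probe set of each gene, with a bar at the mean of its log2 values, small open points are the others, and the dotted line is the filter at 108. The Ccnd2 points of IL7lo lie far below those of the other groups, and the Ccnd1 points of IL7lo lie mostly above them.

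Ccnd2 encodes cyclin D2, and its brightest probe set, 1416122_at, read 6288, 6621 and 7500 in +IRF4, 346, 370 and 383 in IL7lo, and 3491, 3123 and 2743 in IL7hi. The 3 groups did not overlap. In order of level, +IRF4 stood above IL7hi and IL7hi above IL7lo. The probe set fell by 3.03 (SE 0.10, 8.16-fold lower, adjusted p = 1.99e-07) in IL7lo against IL7hi. It rose by 1.12 (SE 0.10, 2.18-fold, adjusted p = 0.000234) in +IRF4 against IL7hi. The 2 comparisons share the IL7hi arrays, and +IRF4 was set directly against IL7lo to test the difference between them: it was 4.15 (SE 0.10, 17.8-fold, adjusted p = 1.83e-08). Among all 27024 probe sets tested, the fall in IL7lo was the 12th largest and the rise in +IRF4 the 119th largest. Other Ccnd2 probe sets ranked above it, at 6, 7, 8 and 10 for the fall and 106, 111, 112 and 118 for the rise.

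The other Ccnd2 probe sets differed in the same directions. In IL7lo against IL7hi all 7 were called lower and none overlapped between the groups, with differences from -3.21 to -2.17 and adjusted p from 1.99e-07 to 1.48e-05. Groups that do not overlap, with IL7lo lower, were found for 23.5% of all probe sets. The 7 differences in +IRF4 against IL7hi ran from 1.04 to 1.23, all 7 without overlap where 8.63% of all probe sets had +IRF4 higher without overlap, and 6 were called. The size of the fall was smallest for 1416124_at, at -2.17 (SE 0.13), whose IL7lo arrays read 37.9, 48.7 and 49.1, against 264, 269 and 245 in IL7hi. These IL7lo values lie below the filter, so its size depends on the added 16: it was -2.50 with 1 added and -1.57 with 64 added. The same holds for 1416123_at, with IL7lo arrays at 44.9, 46.3 and 50.7: its difference of -3.21 was -3.56 with 1 added and -2.51 with 64 added. The probe set that was not called in +IRF4, 1416123_at, read 1026, 1071 and 2071 in +IRF4, against 881, 496 and 416 in IL7hi. Its highest values were on +IRF4 replicate 3 and IL7hi replicate 1, the arrays with the low 18S signal. The same 2 arrays were highest in their groups for Ccnd2 1416122_at, 1434745_at, 1430127_a_at and 1448229_s_at. They were so too for Ccnd3 1415907_at and 1444323_at and for Cdk4 1422441_x_at and 1422439_a_at, and lowest for the Ccnd1 probe sets. The difference of 1416123_at was 1.19 (adjusted p = 0.0611), and without these 2 arrays it was 1.18 (adjusted p = 0.00128). A further Ccnd2 probe set, 1455956_x_at, had its lowest value of each group on the same arrays, at 4324 against 5422 and 5549 on the other +IRF4 arrays and at 2019 against 2839 and 2472 on the other IL7hi arrays. Whether RNA quality has a part in any of these patterns was not tested.

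**Figure D2:**
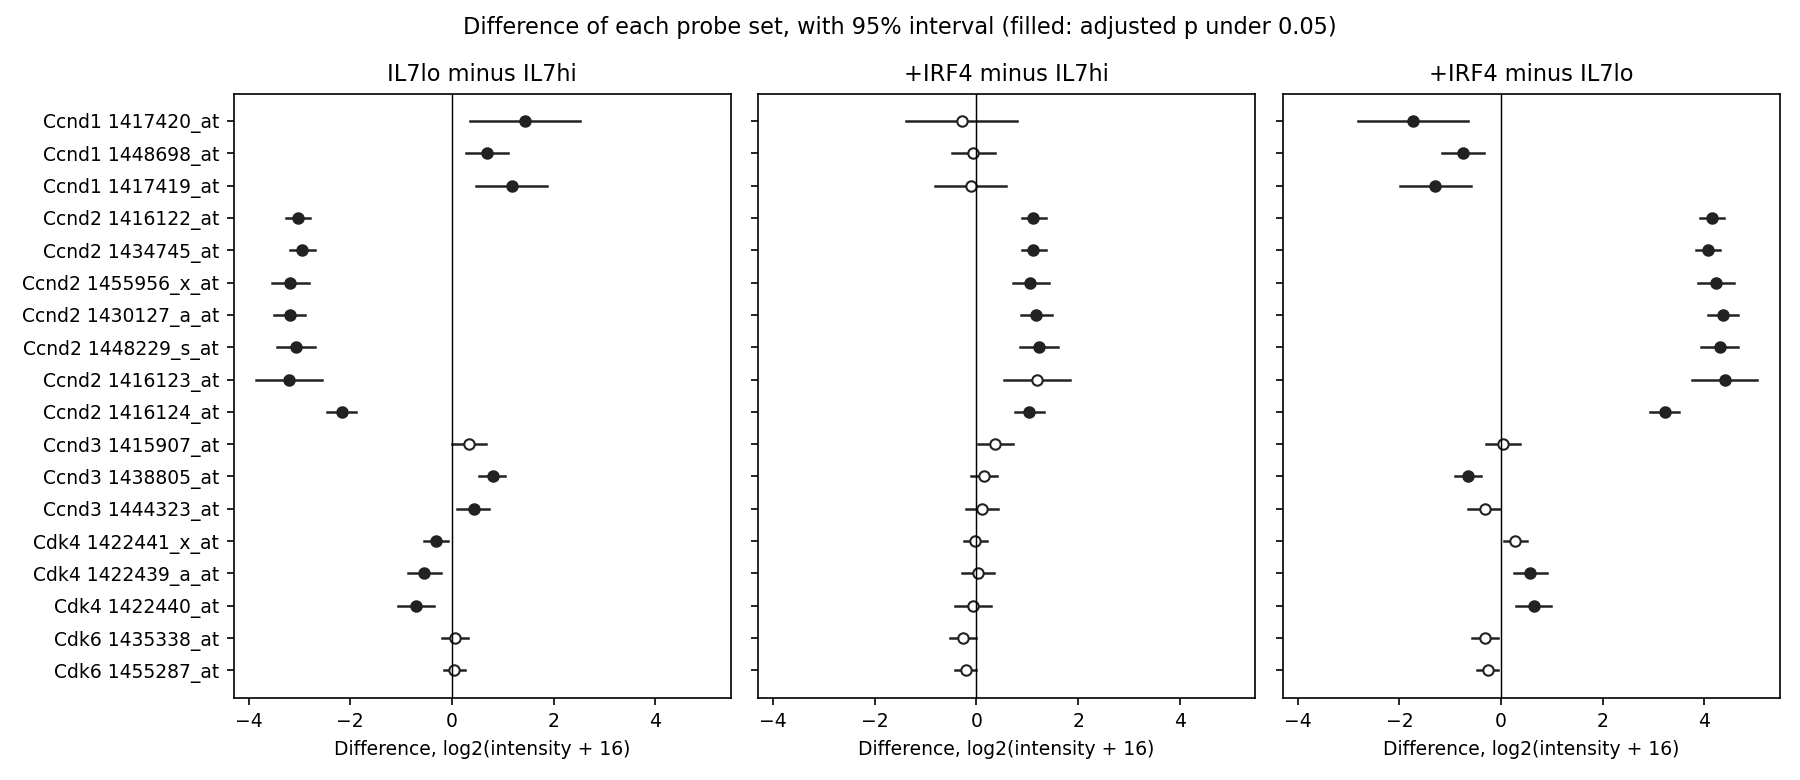
Difference of each of the 18 tested probe sets (horizontal axis, log2 scale, tested comparison named above each panel) with its 95% interval; filled points passed an adjusted p of 0.05. The 7 Ccnd2 probe sets lie between -3.21 and -2.17 for IL7lo minus IL7hi, between 1.04 and 1.23 for +IRF4 minus IL7hi and between 3.22 and 4.40 for +IRF4 minus IL7lo.

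Ccnd3 encodes cyclin D3, and its bright probe set, 1415907_at, read 6138, 5926 and 7544 in +IRF4, 7202, 5993 and 5894 in IL7lo, and 6336, 4087 and 4854 in IL7hi. All 3 groups overlapped, and no comparison between them was called at an adjusted p under 0.05. The difference was 0.34 (95% interval 0.01 to 0.67, adjusted p = 0.105) for IL7lo against IL7hi and 0.37 (0.04 to 0.71, adjusted p = 0.263) for +IRF4 against IL7hi. The highest IL7hi value was again that of replicate 1, and without it the IL7lo difference was 0.51 (adjusted p = 0.0106). With replicate number as a block within the IL7lo and IL7hi arrays the difference of 0.34 was called (adjusted p = 0.00795). The 2 other Ccnd3 probe sets were dim. In IL7lo 1438805_at read 345, 309 and 413, against 187, 220 and 184 in IL7hi, with no overlap. It rose by 0.80 (SE 0.11, adjusted p = 0.000313), a call kept without any 1 of the 9 arrays (adjusted p up to 0.00214). The other, 1444323_at, rose by 0.43 (1.34-fold, adjusted p = 0.0372). Its call was lost, at differences of 0.36 to 0.48, when any 1 of IL7lo replicates 1, 2 and 3 and IL7hi replicates 2 and 3 was left out (adjusted p up to 0.127), and after quantile normalization (0.39, adjusted p = 0.0738) or a shift to a common median (0.41, adjusted p = 0.0533). The probe sets thus differ on whether Ccnd3 passed in IL7lo, while for none of the 3 was +IRF4 called different from IL7hi (0.11 to 0.37, adjusted p from 0.263 to 0.789).

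Ccnd1 encodes cyclin D1. Its brightest probe set reached the filter of 108 on 1 array of +IRF4, 3 of IL7lo and 2 of IL7hi, while 1448698_at did so on all 9 arrays. The brightest, 1417420_at, read 327, 89.9 and 67.5 in +IRF4, 313, 564 and 565 in IL7lo, and 92.3, 252 and 175 in IL7hi. The IL7lo arrays lay above all IL7hi arrays, and 1 of the +IRF4 arrays, replicate 1, lay as high as the lowest IL7lo array. It rose by 1.44 (SE 0.49, 2.71-fold, adjusted p = 0.0408) in IL7lo against IL7hi. A second probe set, 1448698_at, rose by 0.69 (SE 0.19, 1.61-fold, adjusted p = 0.0152), and for both the IL7lo and IL7hi groups did not overlap, where 25.7% of all probe sets had IL7lo higher without overlap. The third, 1417419_at, averaged 96.1 in +IRF4, 250 in IL7lo and 102 in IL7hi, so that only IL7lo brought it over the filter, and its values are a description. The calls rest on few arrays. Without IL7lo replicate 2 or without IL7lo replicate 3 neither passed (adjusted p from 0.0649 to 0.125). Without IL7hi replicate 1 1448698_at failed as well (adjusted p = 0.0549). The brightest also failed without IL7hi replicate 1 (adjusted p = 0.137) and without IL7hi replicate 3 (adjusted p = 0.0778). With replicate number as a block it was not called over all 9 arrays (adjusted p = 0.0713) and was called within the IL7lo and IL7hi arrays (adjusted p = 5.92e-05), at a difference of 1.44 in each. In +IRF4 against IL7hi the differences were -0.29 to -0.06 (adjusted p from 0.838 to 0.927), with a 95% interval of -1.38 to 0.79 for the brightest. Without +IRF4 replicate 1 the brightest differed by -0.91 (-1.69 to -0.14, adjusted p = 0.202). In +IRF4 against IL7lo the brightest and 1448698_at were called lower (-1.73 and -0.75, adjusted p = 0.0175 and 0.00987), where 20.3% of all probe sets were.

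Stromal signal moved with Ccnd1 in part inside the groups. In +IRF4 the summed stromal intensity was 37563, 16861 and 18375 for replicates 1, 2 and 3, and replicate 1 also had the highest Ccnd1 value. Replicate 3 had a lower Ccnd1 value than replicate 2 there, 67.5 against 89.9, at a higher stromal sum. In IL7lo the sum was 16653, 25619 and 23528, and replicate 1 had the lowest Ccnd1 value, while replicates 2 and 3 were level. In IL7hi it was 17851, 51122 and 33818, an order that the Ccnd1 values of 92.3, 252 and 175 followed. Between the groups the order was another: the highest Ccnd1 values, 564 and 565, were those of IL7lo replicates 2 and 3, at stromal sums below those of +IRF4 replicate 1 and IL7hi replicates 2 and 3. Single stromal markers differed in IL7lo against IL7hi from -2.74 for Col3a1, a collagen, to 0.92 for Tagln (adjusted p = 0.0306 and 0.148), and the 1 called higher was Acta2 at 0.43. The part of stromal cells in the Ccnd1 signal was not tested. In RNA of whole cultures, more cells of a type and more RNA per cell cannot be told apart. For Ccnd2 the IL7hi array with the highest stromal sum, replicate 2, read 3123, between replicates 1 and 3.

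**Figure D3:**
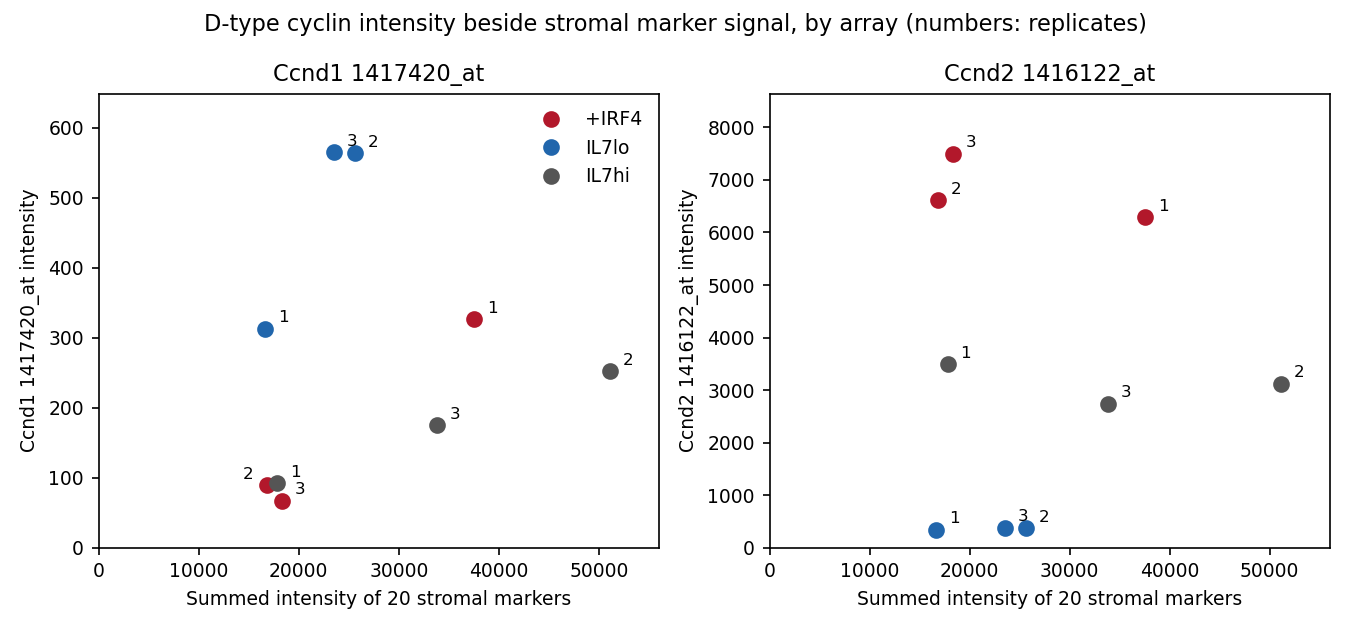
Intensity of Ccnd1 1417420_at (left) and Ccnd2 1416122_at (right) on each array (vertical axes, array units) against the summed intensity of 20 stromal markers on the same array (horizontal axes), with the replicate number beside each point. The IL7lo arrays have Ccnd1 values of 313 to 565 and Ccnd2 values of 346 to 383 at stromal sums of 16653 to 25619.

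Cdk4 encodes the kinase CDK4, and is also known as a gene that MYC activates through E-boxes, the motif CACGTG, in its promoter. The promoters of the 2 kinase genes are shown because Cdk4 passed the test in low IL-7 and Cdk6 did not, and the motif can be read in both. Both are RefSeq sequences of build GRCm38.p6, from 250 bases before to 50 after the annotated start, on the plus strand, for Cdk4 at chr10:127063285-127063584 and for Cdk6 at chr5:3343643-3343942, with each CACGTG in capitals.
Cdk4: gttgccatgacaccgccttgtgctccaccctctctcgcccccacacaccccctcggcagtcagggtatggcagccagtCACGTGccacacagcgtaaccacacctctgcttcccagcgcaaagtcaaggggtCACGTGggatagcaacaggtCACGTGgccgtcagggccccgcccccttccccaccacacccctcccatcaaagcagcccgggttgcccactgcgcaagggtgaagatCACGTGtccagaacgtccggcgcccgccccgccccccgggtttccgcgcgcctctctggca
Cdk6: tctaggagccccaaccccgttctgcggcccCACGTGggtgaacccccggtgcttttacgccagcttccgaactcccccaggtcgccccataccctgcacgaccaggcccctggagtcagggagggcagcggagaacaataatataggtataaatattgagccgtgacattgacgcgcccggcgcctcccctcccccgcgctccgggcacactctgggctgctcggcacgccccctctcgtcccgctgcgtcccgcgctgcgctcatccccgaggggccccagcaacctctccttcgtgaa
The Cdk4 window holds 4 matches, which begin 172, 118, 98 and 11 bases before the start, and the Cdk6 window holds 1, which begins 220 bases before it. The motif reads the same on both strands. At least 1 match was found in 7.15% of 32851 such windows of mouse genes, and at least 4 in 8 of them, 0.0244%. The cutoff of 4 is the count of Cdk4 itself, so that share is a description only. Whether MYC has a part in the Cdk4 change was not tested. A further 4 motifs were searched on both strands in the windows of Cdk4, Cdk6 and the 2 annotated starts of Ccnd3: TTCNNNGAA, bound by STAT factors (in 8.3% of all windows), TGTTTAC, bound by FOXO factors (3.65%), TTTGGCGC, bound by E2F factors (0.514%), and a tandem repeat of GAAA with 2 bases between, bound by IRF factors (3.44%). The single match was a TGTTTAC in 1 Ccnd3 window, which overlapped no other motif. A match is a description of these letters and does not show binding.

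The dimmest of the 3 Cdk4 probe sets, 1422440_at, had the largest fall. It read 2407, 2338 and 2366 in +IRF4, 1973, 1293 and 1347 in IL7lo, and 2961, 2180 and 2375 in IL7hi. The IL7lo arrays lay below both other groups, which overlapped each other. It fell by 0.71 (SE 0.16, 1.64-fold lower, adjusted p = 0.00486) in IL7lo against IL7hi, and it kept that call without any 1 of the 9 arrays (adjusted p up to 0.0261). The other Cdk4 probe sets fell by 0.54 (1422439_a_at, adjusted p = 0.013) and 0.31 (1422441_x_at, the brightest, adjusted p = 0.0354). The name of the last marks probes that can pair with other transcripts, and its IL7lo arrays, at 5059, 4055 and 3897, overlapped those of IL7hi, at 6013, 4868 and 5222. Its call was lost without IL7lo replicate 2 or 3 or IL7hi replicate 1 or 3 (adjusted p up to 0.139), and that of 1422439_a_at without IL7lo replicate 2 or 3 (adjusted p up to 0.0588). IRF4 in high IL-7 gave differences of -0.07 to 0.03 for the 3 probe sets (adjusted p from 0.893 to 0.949), and the 95% interval for 1422440_at was -0.42 to 0.28. In +IRF4 against IL7lo 2 of the 3 were called higher, by 0.58 and 0.65, where 17.2% of all probe sets were.

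Cdk6 encodes the other partner kinase, CDK6. Its brightest probe set, 1435338_at, read 3066, 3555 and 2859 in +IRF4, 4667, 3645 and 3547 in IL7lo, and 3737, 4104 and 3507 in IL7hi, and all groups overlapped. The difference in IL7lo against IL7hi was 0.06 (95% interval -0.20 to 0.31, adjusted p = 0.756), that in +IRF4 against IL7hi was -0.26 (adjusted p = 0.326), and that in +IRF4 against IL7lo was -0.32 (-0.58 to -0.06, adjusted p = 0.0552). The second bright probe set, 1455287_at, has the same target accession as the first and read nearly the same, so it is no second measurement. The third, 1460291_at, read 82.1 to 110 on all arrays and was not tested with the rest. Without the filter its differences were -0.03 in IL7lo and -0.09 in +IRF4 against IL7hi (adjusted p = 0.886 and 0.758).

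The genes most like each member over the 9 arrays, by Pearson r of log2 values among 22735 other probe sets, were Bcl11a (r = 0.989), Kctd14 (0.988) and Scpep1 (0.988) for Ccnd2. For Cdk4 they were Txlna (0.991), Adal (0.989) and Pole3 (0.989), for Ccnd1 Lpp (0.975), Cd151 (0.970) and Malat1 (0.969), for Ccnd3 Clta (0.967), Tbc1d10b (0.954) and Incenp (0.953), and for Cdk6 Phrf1 (0.961), Napepld (0.932) and Slc22a5 (0.930). The arrays share their groups, so for Ccnd2 much of r lies between the groups. With group means taken out, r was 0.81, 0.79 and 0.53 for the 3 genes of Ccnd2, and from 0.87 to 0.99 for those of the other members. Lpp and Cd151 are known from adhesion structures of many cell types.

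The regulators of these genes were read beside them, each gene by its brightest probe set, of which 17.6% were called higher and 19.4% lower in IL7lo against IL7hi among 12828 genes, with a median difference of 0.02. Of 10 transcription regulators of D-type cyclin genes 6 were higher and 1 lower (median 0.40). Myc, which activates Ccnd2 and Cdk4, fell by 2.66 (SE 0.17), and Bcl6, a repressor of Ccnd2, rose by 1.78 (SE 0.18), Foxo1, a repressor of D-type cyclin genes, by 1.49 (SE 0.09) and Lef1, a Wnt pathway factor that activates Ccnd1, by 1.15 (SE 0.12). In +IRF4 against IL7hi, where 1.91% of genes were higher and 0.935% lower, Ikzf1, which encodes Ikaros, was the 1 regulator of 10 to pass, with a rise of 0.74 (SE 0.06, adjusted p = 0.00015). Ikzf1 also rose in IL7lo against IL7hi, by 0.47 (SE 0.06, adjusted p = 0.000238), where Ccnd2 fell. In +IRF4 against IL7hi, where Ccnd2 rose, Myc changed by -0.39 (adjusted p = 0.327). Foxo1 rose in IL7lo, where Ccnd1 was called higher as well. Whether any of these regulators has a part in the change of a member was not tested.

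Inhibitors of the kinases were among the genes that passed in both comparisons against IL7hi. Of 7 CDK inhibitor genes 3 were higher and 1, Cdkn2a at -0.23, lower in IL7lo (median 0.37), where 17.6% and 19.4% of all genes were. In +IRF4 2 were higher and 0 lower (median 0.19), where 1.91% and 0.935% of all genes were. With replicate number as a block Cdkn2a was not called (adjusted p = 0.0557 over all arrays and 0.0667 within the IL7lo and IL7hi arrays). Cdkn2c and Cdkn2d, which encode the INK4 inhibitors p18 and p19 of CDK4 and CDK6, rose by 1.47 and 1.36 in IL7lo (SE 0.08 and 0.10) and by 0.49 and 0.84 in +IRF4 against IL7hi (adjusted p = 0.0121 and 0.00113). These comparisons share the IL7hi arrays. Cdkn1a, encoding p21, rose by 1.0 (SE 0.18) in IL7lo and changed by -0.75 in +IRF4 (adjusted p = 0.0559). Set directly against IL7lo, +IRF4 was lower, with a difference of -1.75 (SE 0.18, adjusted p = 3.92e-05).

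Over all genes 17.6% were called higher and 19.4% lower in IL7lo against IL7hi, and 1.91% and 0.935% in +IRF4 against IL7hi. Of 13 pocket protein and E2F factor genes, the substrates of the kinases and their partners, 7 were higher and 3 lower in IL7lo (median 0.57), and 1 was higher in +IRF4. Rb1, which encodes RB, was that gene: it rose by 1.07 in IL7lo and by 1.09 in +IRF4 (SE 0.12 each, adjusted p = 5.25e-05 and 0.000638). Tfdp2, encoding an E2F partner, rose by 1.39 in IL7lo and Rbl2, encoding the RB relative p130, by 0.87. The 3 genes lower in IL7lo were E2f4 (-1.2), Tfdp1 (-0.5), which also encodes an E2F partner, and E2f3 (-0.47). Of 14 E2F target genes 1 was higher, Rrm2 at 0.50, and 2 were lower, Mcm3 at -0.51 and Cdc6 at -0.47, in IL7lo (median -0.05). These counts were not above the shares of all genes, so they are no result about the list. None of the 14 passed in +IRF4 with limma (median 0.06, with 1 at an unadjusted p under 0.05). Among 8 G1/S cyclins and other kinases 1 was higher, Ccna2 at 0.21, and 3 were lower: Cdk7, the kinase that activates other CDKs, at -0.65, its partner Mnat1 at -0.29, and the phosphatase Cdc25a at -0.47. With 8 genes these counts are small and near the shares of all genes, so they are no result about the list. In +IRF4 none of the 8 passed with limma, also at an unadjusted p under 0.05 (count of 0). Of 9 genes for turnover and folding of the cyclins and kinases 1 was higher and 4 were lower in IL7lo (median -0.12), among them Cdc37, a chaperone that loads CDK4 onto HSP90, at -0.82 (SE 0.13), Hsp90aa1 at -0.45 (SE 0.04) and Fbxo31, a ubiquitin ligase subunit for cyclin D1, at -0.76 (SE 0.10). In +IRF4 none of the 9 passed with limma, and 1 was lower at an unadjusted p under 0.05.

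**Figure D4:**
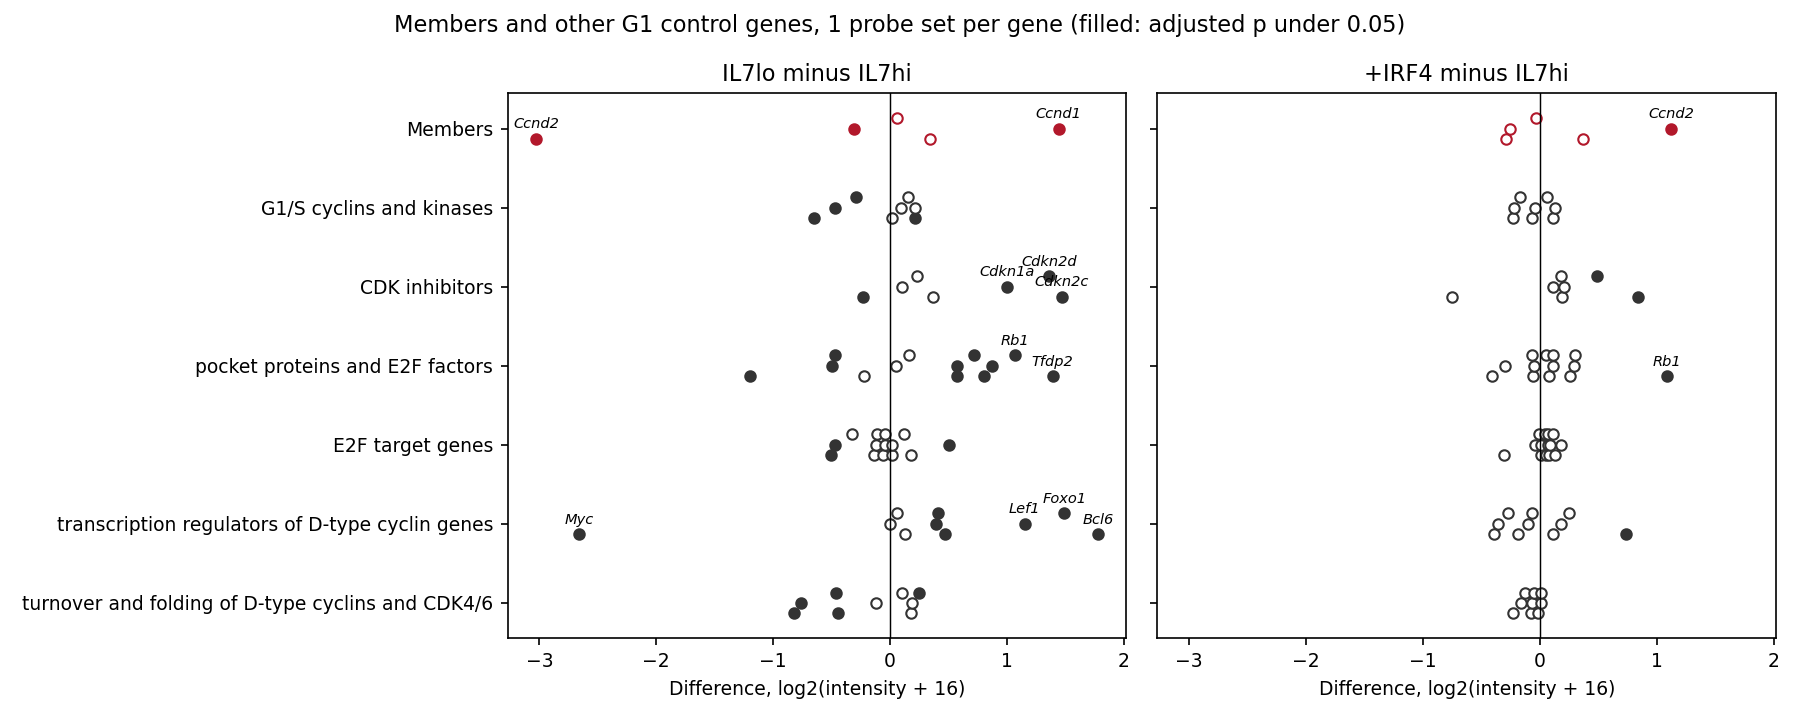
Difference of each member and each listed G1 control gene by its brightest probe set (horizontal axis, log2 scale), for IL7lo minus IL7hi (left) and +IRF4 minus IL7hi (right). Filled points passed an adjusted p of 0.05, and named ones changed by at least 0.9. Ccnd2 lies at -3.03 on the left and 1.12 on the right, and Rb1 at 1.07 and 1.09.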

How the data were processed

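Total RNA was hybridised to Affymetrix mouse arrays after labelling with biotin, per the labels' protocols. The authors deposited linear intensity values for 45101 probe sets on 9 arrays. The software that summarised and scaled them is not stated in those protocols, and the table has no detection calls. No normalization was added. Groups and replicate numbers came from the sample titles, and gene symbols from the platform annotation. The 64 control probe sets were left out, log2(intensity + 16) was taken, and probe sets with a mean under the 40th percentile (108) were not tested. limma 3.58.1 in R 4.3.3 fitted group means over all 9 arrays (lmFit, then eBayes with a trend), with Benjamini-Hochberg adjustment over the 27024 probe sets of a comparison and calls at an adjusted p under 0.05. The procedure was tested on simulated data. The 3 arrays a group limit the precision. Python 3.11.15 with matplotlib 3.10.9 drew the figures.

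The members and gene lists were chosen with earlier results of these data known. Genes of a list were named when among its 5 smallest p in either comparison against IL7hi, and likeness by the 3 highest r for each member. The myeloid markers called, and the pocket protein and E2F factor genes called lower in IL7lo, were named as well. Same-numbered IL7lo and IL7hi arrays deviated together (correlations of 0.19 to 0.53 over 3 pairs), in the data and not by the labels. Same-numbered arrays of +IRF4 and the other groups did not (-0.35 to 0.01 over 6 pairs). Some differently numbered arrays correlated as much: IL7lo replicate 3 with IL7hi replicate 2 (0.36) and +IRF4 replicate 3 with IL7hi replicate 1 (0.41). Others did not, such as IL7lo replicate 1 with IL7hi replicate 2 (-0.51). Whether the numbers mark pairs is thus not settled, and fits with the block rest on that assumption. Alternatives were the pseudocount, the filter, 1 probe set per gene, the trend, 2 normalizations, array weights, the replicate block, only the arrays compared, and each array left out, and, chosen after seeing the data, the 2 arrays with low 18S signal left out together and the block within the IL7lo and IL7hi arrays. Sequences came from RefSeq, with entries for Cdk4, Cdk6 and Ccnd3.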

Additional observations from a re-analysis of the deposited data

How the results depend on the processing

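The directions of all 7 Ccnd2 probe sets held under every alternative in all 3 comparisons. The other calls depended more on the settings. With replicate number as a block within the IL7lo and IL7hi arrays, the bright Ccnd3 probe set gained a call (0.34, adjusted p = 0.00795). No member lost one there, and 43.5% of all probe sets were called. A block over all 9 arrays also ties the +IRF4 arrays by number. With it the brightest Ccnd1 probe set lost its call in IL7lo against IL7hi (1.44, adjusted p = 0.0713). In +IRF4 against IL7lo the brightest probe sets of Cdk4 (0.28, adjusted p = 0.0228) and Cdk6 (-0.32, adjusted p = 0.0421) gained a call. The brightest Cdk4 probe set lost its call in IL7lo against IL7hi in the fit that had no variance trend (-0.31, adjusted p = 0.0567) and with only the 6 arrays compared (-0.31, adjusted p = 0.0591). In +IRF4 against IL7lo it gained one with the 60th percentile filter (0.28), a common median (0.34), array weights (0.37) and only the 6 arrays (0.28), and that of Cdk6 with the 60th percentile filter (-0.32) and quantile normalization (-0.38). Array weights also called the bright Ccnd3 probe set in IL7lo (0.33) and +IRF4 (0.35) against IL7hi. Without +IRF4 replicate 3 and IL7hi replicate 1 together, it was called in IL7lo against IL7hi (0.51), while Ccnd1 (1.08) and Cdk4 (-0.23) were not. The cause of these changes was not tested.

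The percent of all probe sets called in IL7lo against IL7hi, +IRF4 against IL7hi and +IRF4 against IL7lo was 36.4, 2.76 and 37.5, against 23.5, 1.66 and 24.7 with no filter and 56.6, 12 and 56.3 with array weights. For +IRF4 against IL7hi it was 1.19 with only the 6 arrays and 1.53 without the 2 low-18S arrays. Members called higher in IL7lo were 2 with the 60th percentile filter, where 46% of all probe sets were called in either direction. With 1 probe set per gene, which leaves 5 members, 1 was higher and 2 lower in IL7lo, 1 higher in +IRF4 against IL7hi, and 1 higher and 1 lower in +IRF4 against IL7lo. Of all genes 37.4%, 2.85% and 36.4% were called in either direction in these 3 comparisons. Leaving out 1 array at a time, the members called higher in IL7lo ranged from 1 to 5, where 27.7 to 38.6% of all probe sets were called in either direction. The lowest count came without IL7lo replicate 2 or 3, and the count was 3 without IL7hi replicate 3. These counts take in Ccnd1 1417419_at where it was called, and that call is no support. The percent called in +IRF4 against IL7hi ranged from 1.31 to 3.87. In IL7lo against IL7hi Ccnd1 ranged from 1.08 to 1.74, Ccnd3 from 0.19 to 0.51 and Cdk4 from -0.43 to -0.23. In +IRF4 against IL7lo Ccnd1 ranged from -2.35 to -1.33, losing its call without +IRF4 replicate 2 or 3 or IL7lo replicate 2 or 3, Cdk4 from 0.21 to 0.40 and Cdk6 from -0.40 to -0.19. Array signals give no detection limit, so dim Ccnd1 values may lie near background.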
